A study of Homo sapiens with 6 samples.

Results

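The S100 calcium binding proteins are described here by 9 of their genes, S100A2, S100A4, S100A6, S100A10, S100A11, S100A13, S100A14, S100A16 and S100Z, taken by symbol from a table of 58830 genes in definitive endoderm made from human embryonic stem cells. The genes were picked by name with measured values of these same libraries in view, so their levels and differences are a description and no p is given for them. RNA-seq of total RNA covered 6 libraries of the established line HuES8, taken to endoderm in DMEM-F12 basal medium with 0.2% BSA and 1% Penicillin-Streptomycin, where 100 ng/mL Activin A was present on each of 3 days and the Wnt-activating GSK3 inhibitor CHIR (2.5 µM) on day 1. The KD group was 3 libraries in which GATA6-AS1, the RNA antisense to the endoderm factor GATA6, had been knocked down, and the DE group was 3 libraries of the wild-type genotype. The sources used here give neither the knockdown method, nor a control construct in DE cells, nor the number of clones. The values are TPM, which correct reads for the length of a gene and the size of a library. Levels of different genes can be compared only roughly, because the length over all annotated exons need not be that of the transcript expressed.

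S100 proteins are small EF-hand proteins that work mostly as dimers: calcium opens a cleft in the dimer, and the open form binds a target such as an annexin, a myosin heavy chain or a receptor. S100A10, also called p11, is the exception, since it has lost calcium binding, stays in the open form and pairs with annexin A2 at the plasma membrane. Most human S100 genes lie in a cluster at 1q21 around the genes of the epidermal barrier, and many of them are marks of epithelial, mesenchymal or myeloid cells and not of early embryonic ones.

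In the GENCODE 29 annotation of GRCh38, 8 of the 9 genes lie on chromosome 1, all 8 on the minus strand, and S100Z lies on chromosome 5 on the plus strand. S100A10 (ENSG00000197747.8) spans 151982915 to 151994390 and S100A11 (ENSG00000163191.5) 152032506 to 152047907, 38.1 kb apart. A gap of 1487 kb, which holds the epidermal genes, separates them from a group of 6 that runs over 96.8 kb: S100A6 (ENSG00000197956.9, 153534599 to 153536244), S100A4 (ENSG00000196154.11, 153543613 to 153550136), S100A2 (ENSG00000196754.10, 153561108 to 153567890), S100A16 (ENSG00000188643.10, 153606886 to 153613145), S100A14 (ENSG00000189334.8, 153614255 to 153616986) and S100A13 (ENSG00000189171.14, 153618787 to 153631360). S100A16 ends 1110 bases before S100A14 begins, and S100A14 1801 bases before S100A13. S100Z (ENSG00000171643.13) spans 76850001 to 76921650.

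The bases before the starts of 4 of these genes are shown because, of the 7 members with enough RNA to be tested, they had the KD to DE ratios farthest from 1: S100A10, the member that was higher in KD by the largest factor, the adjacent S100A14 and S100A16, and S100Z from the other chromosome. Each is the 250 bases before the first start that RefSeq lists on GRCh38.p14, 5′ to 3′ on the strand of the gene. Capitals mark matches, on either strand, to GATA words (the letters GATA after A or T and before A or G), the TATA box (TATAAA), the GC box (GGGCGG) or forkhead words (TGTTT, then A or G, then C).
S100A10 (chr1:151993860-151994109, minus strand): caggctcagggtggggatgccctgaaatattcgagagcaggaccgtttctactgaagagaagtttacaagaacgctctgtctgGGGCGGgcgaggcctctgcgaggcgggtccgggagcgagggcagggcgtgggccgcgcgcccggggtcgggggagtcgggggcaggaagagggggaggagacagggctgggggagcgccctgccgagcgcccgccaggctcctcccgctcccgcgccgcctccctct
S100A14 (chr1:153616326-153616575, minus strand): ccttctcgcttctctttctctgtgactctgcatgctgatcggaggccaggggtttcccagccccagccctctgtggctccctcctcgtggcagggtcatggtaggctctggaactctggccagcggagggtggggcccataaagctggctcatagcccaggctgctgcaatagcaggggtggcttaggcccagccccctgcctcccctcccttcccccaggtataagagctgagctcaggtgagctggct
S100A16 (chr1:153613138-153613387, minus strand): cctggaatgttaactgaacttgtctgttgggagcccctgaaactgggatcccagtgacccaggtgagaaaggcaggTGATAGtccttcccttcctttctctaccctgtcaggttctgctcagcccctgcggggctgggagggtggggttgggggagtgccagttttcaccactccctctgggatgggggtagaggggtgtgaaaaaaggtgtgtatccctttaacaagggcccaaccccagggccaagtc
S100Z (chr5:76874373-76874622, plus strand): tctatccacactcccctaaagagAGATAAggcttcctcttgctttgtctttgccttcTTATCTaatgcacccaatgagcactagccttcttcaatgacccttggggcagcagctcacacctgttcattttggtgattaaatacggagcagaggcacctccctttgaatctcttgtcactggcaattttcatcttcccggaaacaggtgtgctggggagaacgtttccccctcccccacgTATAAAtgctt
S100A10 held a GC box 167 bases before its start and S100A16 a GATA word 174 bases before its own. S100Z held GATA words 227 and 193 bases before the start and a TATA box 11 bases before it. S100A14 held none of these letters in this window. Of 27305 gene windows of the same length, 22.9% held a GATA word, 11.1% a TATA box, 42.3% a GC box and 6.05% a forkhead word. The first bases after the S100Z start were found in no GENCODE 29 transcript of the gene, while those of the other 3 were.

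The libraries held between 18640754 and 24510634 estimated reads in KD and between 18990941 and 23759542 in DE. GATA6-AS1 had 157 ± 27.3 TPM in KD and 374 ± 55.1 TPM in DE (SD, n = 3 each), so the targeted RNA was lower in the libraries labelled as knockdown (limma adjusted p = 0.0128), a call lost without KD replicate 2 or DE replicate 1 (limma adjusted p = 0.0612 and 0.0717). GATA6 itself had 218 ± 30.6 TPM in KD and 346 ± 52.8 TPM in DE (limma adjusted p = 0.0648, with the replicate block 0.00500). Mitochondrial transcripts took 28.3%, 28.8% and 36.2% of TPM in KD replicates 1 to 3 and 28.5%, 24.6% and 38.04% in DE replicates 1 to 3, so replicate 3 had the highest share in KD and in DE. No separate cultures are named for the replicates, so a p here reflects library-to-library spread that could be technical. Endoderm markers were present in both groups, and 4 of 7 fell in KD, or 7 of 7 with the replicate block. Over all genes tested limma called 1.5% lower in KD, or 6.62% with the block, and 1.77% higher, or 5.88% with the block. CER1, a secreted Nodal antagonist, had 16815 ± 773 TPM in KD and 23570 ± 1560 TPM in DE (limma adjusted p = 0.0406). The T-box factor EOMES had 1002 ± 61.5 TPM in KD and 1239 ± 67.1 TPM in DE (limma adjusted p = 0.132, with the replicate block 0.0368). Markers of pluripotent stem cells summed to between 2974 and 3355 TPM over 6 genes in KD and between 1832 and 2278 TPM in DE, with 5 of 6 higher in KD and none lower. Without single libraries, between 0 and 4 endoderm markers were called lower (0 without KD replicate 2 or DE replicate 1, 2 without KD replicate 3 or DE replicate 2) and CER1 in none of these fits. Likewise between 1 and 4 pluripotency markers were called higher (1 without KD replicate 1, KD replicate 2 or DE replicate 1, 3 without KD replicate 3 or DE replicate 2). In bulk RNA, a different share of cells of a type and a different amount of RNA per cell cannot be told apart.

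S100A11 was by far the most abundant S100 RNA of these cells. It binds annexin A1 and takes part in membrane repair and growth control. It had 556, 571 and 592 TPM in KD libraries and 474, 497 and 486 TPM in DE libraries. On TPM every KD library lay above every DE library, though by little: the means were 573 ± 18.1 TPM in KD and 486 ± 11.4 TPM in DE (SD, n = 3 each), a KD to DE ratio of 1.18. That separation was lost with median-ratio scaling (size factors of 1.05 in KD replicates 1 and 2 and 0.866 in DE replicate 3). The SE of the S100A11 log2 change was 0.124 with that scaling and 0.0768 on TPM. S100A11 alone made up between 87.3% and 90.5% of the TPM of all S100 genes in KD libraries and between 85.0% and 89.2% in DE libraries. Averaged over the 6 libraries it stood above 99.2% of the genes tested, whereas S100A10 stood above 76.7%, S100A16 above 59.3% and the other 4 tested members above fewer than 45%, S100A13 being the highest of them at 44.1%.

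S100A10 was the other member with more RNA in KD. It had 51.5, 48.3 and 38.7 TPM in KD libraries, against 28.8, 29.8 and 20.97 TPM in DE libraries. The groups did not overlap, and replicate 3 was the lowest library in both. The mean was 46.2 ± 6.64 TPM in KD and 26.5 ± 4.83 TPM in DE (SD, n = 3 each), a ratio of 1.74.

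The 3 neighbours S100A16, S100A14 and S100A13 had less RNA in KD. S100A16, a widely expressed S100 protein, had 11.99, 13.2 and 9.82 TPM in KD libraries, against 29.6, 21.98 and 18.7 TPM in DE libraries. Even the lowest DE library lay above the highest KD library, with means of 11.7 ± 1.70 TPM in KD and 23.4 ± 5.60 TPM in DE (SD, n = 3 each), a ratio of 0.498. S100A14, an epithelial S100 protein that binds the receptor RAGE, had 0.556, 1.56 and 1.94 TPM in KD libraries, against 5.69, 4.76 and 4.49 TPM in DE libraries. Here KD replicate 1 was far below the other KD libraries, and it rested on 4 estimated reads, against 13 and 20 in KD replicates 2 and 3 and 52, 39 and 37 in DE replicates 1 to 3. The means were 1.35 ± 0.715 TPM in KD and 4.98 ± 0.633 TPM in DE (SD, n = 3 each), a ratio of 0.272, the smallest among the members tested. S100A13, which helps cells to release the growth factor FGF1, had 8.40, 6.93 and 6.87 TPM in KD libraries, against 11.4, 9.84 and 8.94 TPM in DE libraries. The gap between the groups was narrow, from 8.40 TPM in the highest KD library to 8.94 TPM in the lowest DE library, and the ratio of the means was 0.735. Over its exons S100A13 shares 24.2% of its length with the transcript AL162258.1 on the same strand and 10.6% with S100A1 on the opposite strand, and no source used here states whether counting used strand, which leaves reads from those bases uncertain.

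S100Z, which in human was found as a binding partner of S100P, was low and lower still in KD. It had 1.18, 1.34 and 1.01 TPM in KD libraries, against 2.003, 2.39 and 2.38 TPM in DE libraries. The groups did not overlap, and the means were 1.18 ± 0.161 TPM in KD and 2.26 ± 0.220 TPM in DE (SD, n = 3 each), a ratio of 0.521. These levels stood for 13, 17 and 16 estimated reads in KD replicates 1 to 3 and 28, 30 and 30 in DE replicates 1 to 3.

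S100A4, a mark of motile and fibroblast-like cells that binds non-muscle myosin, did not separate the groups. It had 2.94, 2.55 and 2.41 TPM in KD libraries, against 3.14, 2.58 and 2.27 TPM in DE libraries, with all 3 KD values inside the DE range. The means were 2.63 ± 0.274 TPM in KD and 2.66 ± 0.441 TPM in DE (SD, n = 3 each). The log2 change of TPM + 1 had a 95% interval of -0.38 to 0.37.

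S100A6 and S100A2 were barely detected. S100A6, or calcyclin, is abundant in many proliferating and stromal cells, yet it had 0.731, 0.158 and 0.382 TPM in KD libraries and 0.288, 0.963 and 0.478 TPM in DE libraries, which stood for 4, 1 and 3 estimated reads in KD and 2, 6 and 3 in DE. S100A2, a keratinocyte gene, had 0.113, 0 and 0.0790 TPM in KD libraries and 0.357, 0.0994 and 0.0988 TPM in DE libraries, or 2 estimated reads over all KD libraries and 6 over all DE libraries. The value of 0 in KD replicate 2 allows up to 0.294 TPM, the worth of 3 reads, for counting error only. No difference in either gene was detectable at this depth. Neither reached 1 TPM in any library, so both were under the testing limit (3 or more of the 6 libraries with 1 TPM or more), and 7 of the 9 members were tested. Of those 7, S100A14 reached 1 TPM in all 3 DE libraries and in 2 of the KD libraries, and the others in all 6.

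**Figure D1:**
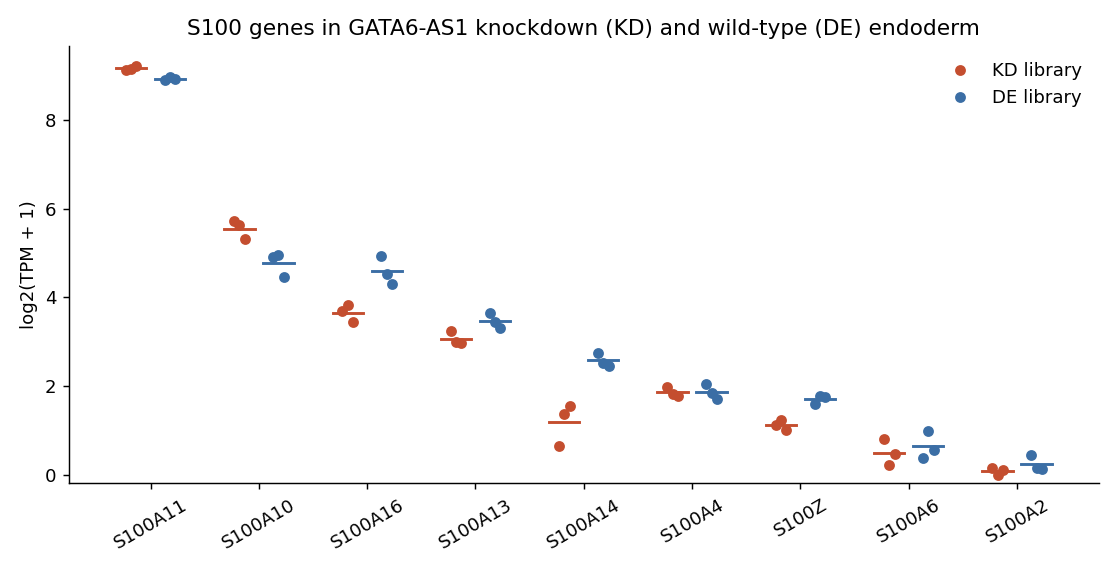
Level of the 9 S100 genes as log2(TPM + 1) on the vertical axis, ordered by mean level, with KD libraries (left, red) beside DE libraries (right, blue), points for libraries and bars for group means (n = 3 each). S100A11 lies between 474 and 592 TPM in all 6 libraries, S100A10 is higher in KD, S100A16, S100A13, S100A14 and S100Z are lower in KD, and S100A6 and S100A2 stay under 1 TPM.

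The order of the levels differed between the groups in 2 places. In KD it ran S100A11, S100A10, S100A16, S100A13, S100A4, S100A14, S100Z, S100A6 and S100A2, and only S100A14 and S100Z overlapped among neighbours in that order. In DE the order was S100A11, S100A10, S100A16, S100A13, S100A14, S100A4, S100Z, S100A6 and S100A2. Overlap between neighbours was seen there for S100A10 with S100A16, for S100A4 with S100Z and for S100A6 with S100A2. S100A10 and S100A16 were thus close together in DE, at 26.5 and 23.4 TPM on average, and well apart in KD, at 46.2 and 11.7 TPM.

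A ratio of 2 genes within a library is free of the scaling between libraries. The ratio of S100A10 to S100A16 was 4.29, 3.66 and 3.94 in KD replicates 1 to 3 and 0.974, 1.36 and 1.124 in DE replicates 1 to 3, so the groups were far apart. The ratio of S100A10 to S100A11 was 0.0927, 0.0844 and 0.0655 in KD and 0.0608, 0.0599 and 0.0432 in DE, with all KD libraries above all DE libraries. S100A13 stood at 0.701, 0.526 and 0.699 of S100A16 in KD and at 0.386, 0.448 and 0.479 in DE, so these neighbours did not differ between the groups by the same factor. S100A14 stood at 0.0463, 0.119 and 0.197 of S100A16 in KD and at 0.192, 0.216 and 0.240 in DE, and these overlapped. S100Z stood at 0.401, 0.525 and 0.420 of S100A4 in KD and at 0.639, 0.926 and 1.05 in DE, without overlap. These pairs were picked with the levels known, and no test was made of them.

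**Figure D2:**
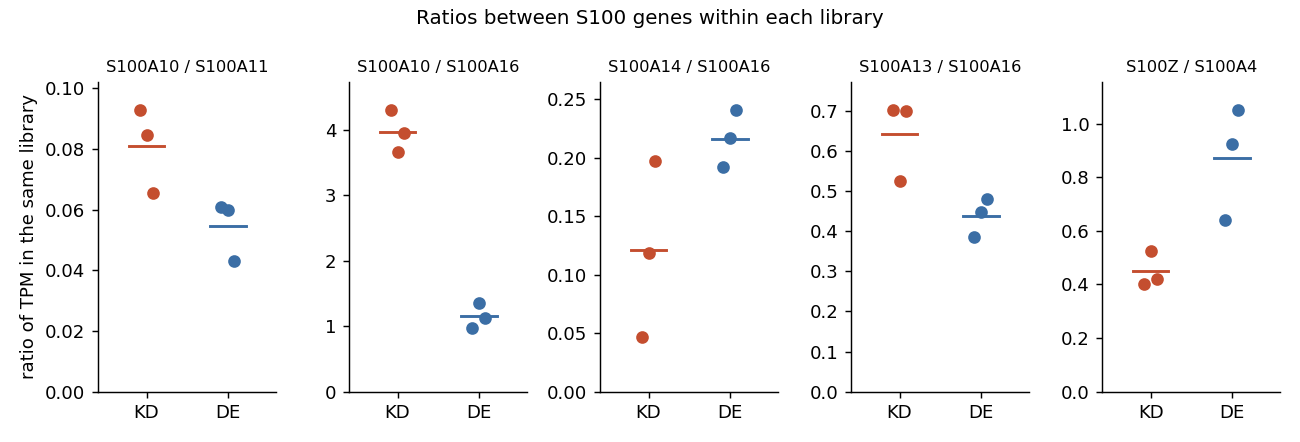
Ratio of the TPM of 2 S100 genes in the same library (vertical axes, each from 0), with KD libraries left of DE libraries, points for libraries and bars for means (n = 3 each). The ratio of S100A10 to S100A16 lies between 3.66 and 4.29 in KD and between 0.974 and 1.36 in DE, while that of S100A14 to S100A16 overlaps.

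All S100 genes together had 646 ± 8.55 TPM in KD and 558 ± 13.7 TPM in DE (SD, n = 3 each), and without S100A11 they had 72.6 ± 9.77 TPM in KD and 72.6 ± 12.8 TPM in DE. Apart from S100A11, the higher S100A10 and the lower S100A16, S100A13, S100A14 and S100Z therefore left the summed level nearly the same. The 12 other S100 genes looked up, S100A1, S100A3, S100A5, S100A7, S100A7A, S100A7L2, S100A8, S100A9, S100A12, S100B, S100G and S100P, summed to between 0.689 and 3.66 TPM in KD and between 0.409 and 2.74 TPM in DE, and none was tested. S100A1, the calcium sensor of heart and skeletal muscle, held most of their reads, 94 over the 6 libraries. It shares 235 exon bases with S100A13 on the opposite strand, and the strand setting of the counting is unknown, so these reads are uncertain. The 7 fused genes, such as filaggrin (FLG), in which an S100 domain heads a long epidermal protein, had between 4 and 48 reads a library in KD and between 10 and 73 in DE, and none reached 1 TPM.

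On the scale of log2(TPM + 1), limma fitted to all 17711 genes tested called 579 at an adjusted p of 0.05, or 3.27% of them, with 1.77% higher and 1.5% lower in KD. S100A14 (log2 change -1.39, SE 0.254, 95% interval -1.99 to -0.79) and S100A16 (-0.93, SE 0.187, -1.37 to -0.49) were on the called side, both lower in KD. The other 5 tested members were not: S100A10 (0.78, SE 0.169, 0.39 to 1.18), S100A11 (0.24, SE 0.0768, 0.06 to 0.42), S100A13 (-0.40, SE 0.139, -0.72 to -0.07), S100Z (-0.58, SE 0.162, -0.96 to -0.20) and S100A4 (-0.01, SE 0.160). With the replicate number as a block, 12.5% of all genes were called (5.88% higher and 6.62% lower in KD), and so were 5 members, S100A10 and S100A11 higher in KD and S100A13, S100A14 and S100A16 lower. S100A10 was also called higher under 6 other alternatives, 3 of them in scaling (log2 changes between 0.75 and 0.80). On TPM the groups did not overlap for 6 of the 7 tested members and for 20.8% of all genes tested, 10.1% with KD higher and 10.7% with KD lower. The members were chosen on this contrast, so nothing is read from these counts.

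The 2 calls turned on single libraries. S100A14 was called without KD replicate 3 (log2 change -1.58) and not without KD replicate 1 or 2 (-1.12 and -1.48) or DE replicate 1, 2 or 3 (-1.31, -1.42 and -1.45). S100A16 was called without DE replicate 3 (-1.07) and not without KD replicate 1, 2 or 3 (-0.95, -1.02 and -0.82) or DE replicate 1 or 2 (-0.76 and -0.96). Both calls were also lost with no filter on low values, that of S100A14 with a pseudocount of 0.1 and that of S100A16 without the variance trend. The count over all genes was 170, 87 and 252 without KD replicate 1, 2 or 3 and 99, 212 and 610 without DE replicate 1, 2 or 3, with fewer libraries in each fit. Pluripotency and endoderm markers moved with these values between the groups as given above. Trophoblast and amnion markers summed to between 20.99 and 27.3 TPM over 6 genes in KD and between 46.8 and 52.7 TPM in DE, with 1 of 2 tested lower, GATA3 (log2 change -1.20, limma adjusted p = 0.00776, lost without DE replicate 1 at 0.0547), and 2 of 2 lower with the replicate block. Of the 6, 4 stayed under 1 TPM in every library (TFAP2A, KRT7, CGA and VTCN1). Nearly all of the sum was GATA3 (17.0 TPM in KD and 40.5 TPM in DE) and ISL1 (6.01 TPM in KD and 9.23 TPM in DE). Streak and mesoderm markers summed to between 1968 and 2054 TPM over 6 genes in KD and between 1899 and 2235 TPM in DE. Of 5 of them tested, 2 were higher, T and KDR, and 1 lower, HAND1, with T and HAND1 named after their values were seen. Beside these marker counts, limma called 1.77% of all genes tested higher and 1.5% lower, or 5.88% and 6.62% with the replicate block. In KD, HAND1 reached 1 TPM only in replicate 3, so it met the testing limit through its DE level. Without single libraries, between 0 and 1 of the streak and mesoderm markers were called higher and between 0 and 1 lower. The part of these cell types in the S100 differences was not tested. Of 8 squamous epithelial markers, 5 stayed under 1 TPM in every library, among them LOR at 0, while SFN had 10.5 ± 0.860 TPM in KD and 3.97 ± 0.285 TPM in DE (limma adjusted p = 0.00572). KRT10 had 5.65 ± 0.258 TPM in KD and 6.08 ± 0.435 TPM in DE. The summed level of the 8 was between 15.7 and 20.2 TPM in KD and between 9.75 and 11.5 TPM in DE, and its highest library, KD replicate 1, held 3.27 TPM of KRT14, against 0.0673 and 0 TPM in KD replicates 2 and 3. The 5 myeloid markers summed to at most 0.854 TPM in KD and 1.11 TPM in DE, each under 1 TPM. Mesenchymal markers summed to between 108 and 138 TPM over 8 genes in KD and between 139 and 174 TPM in DE, mostly from VIM and PDGFRA, with DCN, LUM and COL3A1 under 1 TPM in every library, and limma called none of the 4 tested (1 at an unadjusted p under 0.05, 1 by voom, 1 lower with the replicate block). Neuroectoderm markers summed to between 134 and 155 TPM over 4 genes in KD and between 93.9 and 134 TPM in DE, and limma called none of the 2 tested (1 at an unadjusted p under 0.05, 1 by voom). Nearly all of that sum was NES, with 143 ± 11.4 TPM in KD and 109 ± 20.4 TPM in DE. PAX6 had 2.12 TPM in KD and 2.54 TPM in DE, and the means of SOX1 and FABP7 were under 1 TPM in both groups.

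**Figure D3:**
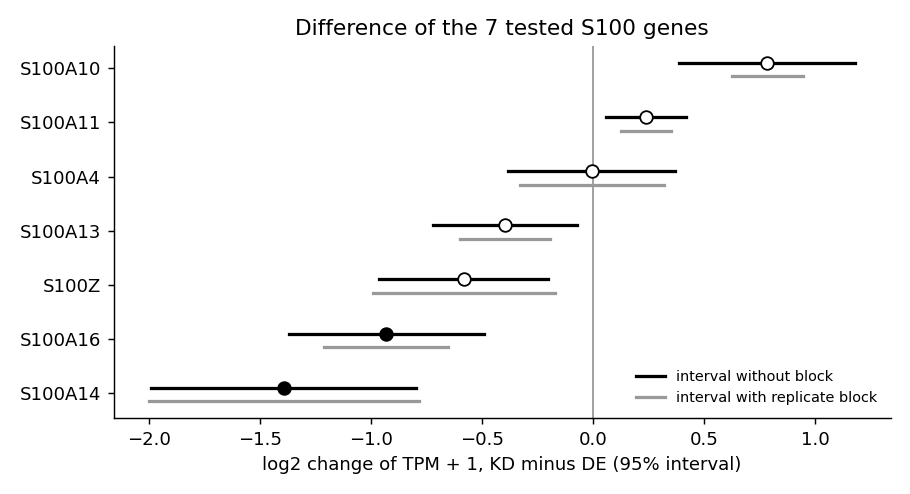
Difference of the 7 tested S100 genes as log2 change of TPM + 1, KD minus DE, with 95% intervals from limma without a block (black) and with the replicate number as a block (grey); filled points are genes at an adjusted p under 0.05 without the block. Values run from -1.39 for S100A14 to 0.78 for S100A10, and the interval of S100A4 spans 0.

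The genes around the chromosome 1 members were examined because those members share this position. Of 115 annotated genes other than members from 250 kb below S100A10 to 250 kb above S100A1, 86 had a row in the table and 11 were tested. AL450992.2, an antisense RNA gene below S100A10 (151841877 to 151850385, plus strand), rose in KD, none fell and 10 did not pass. It had 4.21, 5.16 and 2.69 TPM in KD libraries, against 1.105, 1.23 and 0.306 TPM in DE libraries (log2 change 1.42, limma adjusted p = 0.0451). That call was lost without each single library (limma adjusted p between 0.0521 and 0.186). Without the block limma called 1.77% of all genes tested higher and 1.5% lower. The median log2 change of the 11 was -0.08, beside -0.01 over all genes tested. ILF2, an RNA-binding factor and the most abundant of them, had 612 ± 23.6 TPM in KD and 597 ± 18.8 TPM in DE (SD, n = 3 each). NPR1, the receptor of natriuretic peptides, had 46.1 ± 6.995 TPM in KD and 73.2 ± 11.4 TPM in DE, with no overlap (log2 change -0.65, limma adjusted p = 0.0815). It passed with the replicate block (limma adjusted p = 0.00281), with which 1 of the 11 was higher and 4 were lower. The block called 12.5% of all genes tested.

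**Figure D4:**
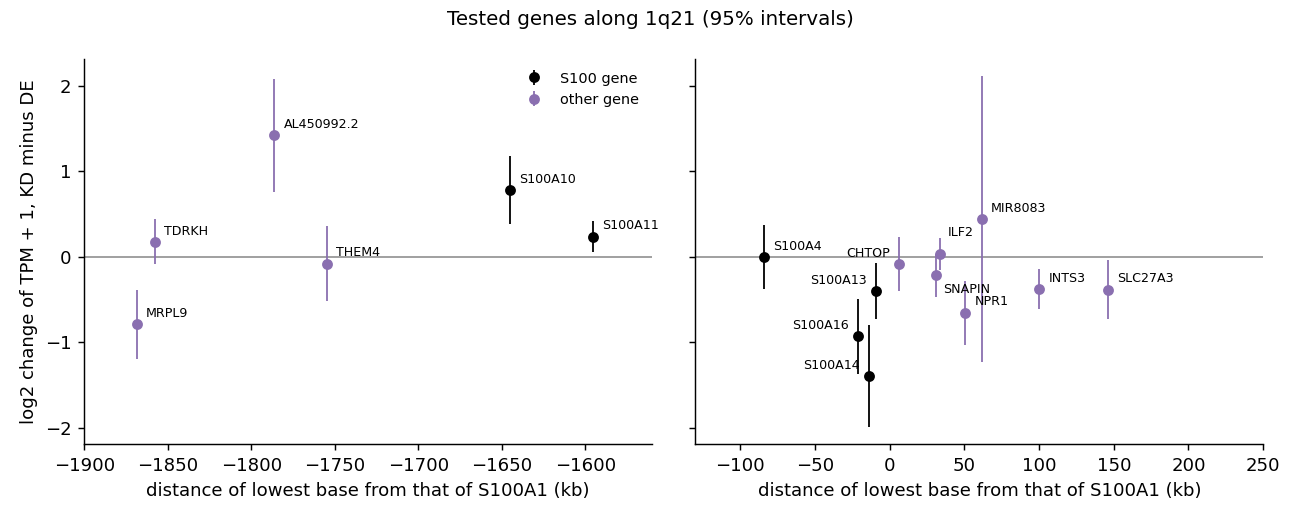
Log2 change of TPM + 1, KD minus DE, with 95% intervals, of the tested S100 genes (black) and the other tested genes (purple) on chromosome 1, against the distance in kb of each gene's lowest base from that of S100A1; left and right panels show the regions below and above the epidermal genes. S100A10 and S100A11 have positive values, and S100A16, S100A14 and S100A13 lie below 0. In the same panel NPR1 (-0.65), INTS3 (-0.38), SLC27A3 (-0.38), SNAPIN (-0.22) and CHTOP (-0.08) also lie below 0. ILF2 (0.03) and MIR8083 (0.45, interval -1.22 to 2.12) lie above it. In the left panel, with S100A10 and S100A11, MRPL9 (-0.79) and THEM4 (-0.08) lie below 0, and TDRKH (0.18) and AL450992.2 (1.42) lie above it.

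The genes whose proteins S100 dimers bind were then followed from lists of annexins, partners and other EF-hand genes. Limma called 3.27% of all genes tested, and none of 9 annexins tested rose or fell (13 were listed). Their median log2 change was -0.06, and 1 was lower with the replicate block, with which 12.5% of all genes tested were called. At an unadjusted p under 0.05 limma had 3, and voom on the estimated reads called 3. ANXA5, the most abundant, had 279 ± 36.6 TPM in KD and 298 ± 57.4 TPM in DE (SD, n = 3 each), and ANXA6 had 85.4 ± 9.59 TPM in KD and 115 ± 17.4 TPM in DE (limma adjusted p = 0.208, with the replicate block 0.00746). ANXA2, the partner of S100A10, and ANXA1, the partner of S100A11, were added for their known binding after their values were seen. ANXA2 had 52.1 ± 4.47 TPM in KD and 52.4 ± 3.72 TPM in DE, a log2 change of -0.01. ANXA1 had 1.68 ± 0.520 TPM in KD and 0.508 ± 0.182 TPM in DE, a log2 change of 0.82 that missed the threshold (limma adjusted p = 0.110). ANXA1 was under 1 TPM in every DE library, so it met the testing limit only through its KD level. S100A10 thus stood at a level near that of ANXA2 in KD, 46.2 against 52.1 TPM, and below it in DE, 26.5 against 52.4 TPM.

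Of 27 partner and receptor genes tested, 3 rose, 1 fell and 23 missed the threshold, beside 1.77% of all genes tested called higher and 1.5% lower. The list's median log2 change was 0.00, beside -0.01 over all genes tested. FGF1, a growth factor without an export signal, and SYT1, a vesicle calcium sensor, are both known to be released in a complex with S100A13. FGF1 had 2.75 ± 0.0597 TPM in KD and 0.874 ± 0.0919 TPM in DE (SD, n = 3 each; log2 change 1.00, limma adjusted p = 0.0196). It was under 1 TPM in every DE library, so it met the testing limit only through its KD level. SYT1 had 5.64 ± 0.587 TPM in KD and 2.16 ± 0.354 TPM in DE (log2 change 1.07, limma adjusted p = 0.0154). S100A13 itself was lower but was not called in the same fit, and no link between it and FGF1 or SYT1 was tested. DLC1, a protein that competes with annexin A2 for S100A10, fell to 15.5 ± 1.21 TPM in KD, against 26.5 ± 2.17 TPM in DE (log2 change -0.73, limma adjusted p = 0.0196). BSG and NCL, the most abundant of the list, did not pass, with log2 changes of -0.07 and 0.32. With the replicate block 5 rose and 4 fell, NCL among those that rose (limma adjusted p = 0.0224), beside 12.5% of all genes tested called either way. None of the list passed without KD replicate 1, KD replicate 2 or DE replicate 1. SYT1 alone passed without KD replicate 3 or DE replicate 2, and 5 passed without DE replicate 3.

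Of 41 other EF-hand genes tested, 1 rose, 1 fell and 39 missed the threshold, beside 1.77% of all genes tested called higher and 1.5% lower. The list's median log2 change was -0.06, beside -0.01 over all genes tested. VSNL1, a neuronal calcium sensor, had 6.22 ± 0.412 TPM in KD and 0.895 ± 0.0773 TPM in DE (SD, n = 3 each; log2 change 1.93, limma adjusted p = 0.00251), and it still passed with each of the 6 libraries left out in turn. VSNL1 was under 1 TPM in every DE library, so it met the testing limit only through its KD level. The fits without single libraries kept the genes tested with all 6. Without a KD library VSNL1 would not have met that limit, so its passes there add no support. EFHD2, an actin-binding EF-hand protein, had 51.4 ± 2.20 TPM in KD and 84.8 ± 3.47 TPM in DE (log2 change -0.71, limma adjusted p = 0.0106). Its call was lost without KD replicate 1, KD replicate 2 or DE replicate 1 (limma adjusted p = 0.0514, 0.0750 and 0.0818). CALM3, a calmodulin gene and the most abundant of the list, had 781 ± 52.4 TPM in KD and 1068 ± 112 TPM in DE and passed only with the replicate block (limma adjusted p = 0.0767 without it and 0.00495 with it). SPARC, a secreted matrix protein, had 652 ± 17.0 TPM in KD and 744 ± 40.8 TPM in DE and did not pass. With the block 2 of the list rose and 6 fell, beside 12.5% of all genes tested called either way.

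**Figure D5:**
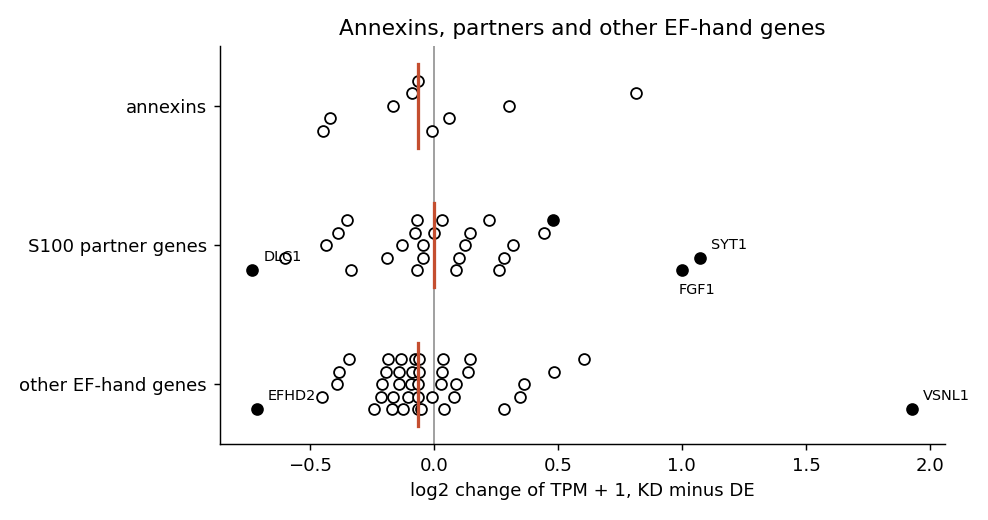
Log2 change of TPM + 1, KD minus DE, of each tested annexin (n = 9), S100 partner (n = 27) and other EF-hand gene (n = 41), with red lines for list medians and filled points for genes at a limma adjusted p under 0.05, labelled where the text names them. The medians lie at -0.06, 0.00 and -0.06, and the labelled genes run from -0.73 for DLC1 to 1.93 for VSNL1.

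Genes whose pattern over the 6 libraries was nearest to a member were sought among 10730 genes of at least 5 TPM, by the Euclidean distance between centred log2(TPM + 1) values. Nearest to S100A10 were EDIL3, a secreted integrin ligand (distance 0.0794), USP44, a deubiquitinase (0.135), and TBC1D4, a Rab GTPase-activating protein (0.136). EDIL3 had 49.4, 48.2 and 37.0 TPM in KD libraries and 28.5, 30.2 and 20.1 TPM in DE libraries. Nearest to S100A16 were the antisense RNA TSPEAR-AS1 (0.214), the epithelial GTPase RAB17 (0.222) and the noncoding RNA DIO3OS (0.308). RAB17 had 15.1, 14.7 and 12.4 TPM in KD libraries and 34.1, 26.7 and 25.5 TPM in DE libraries. Both sets share the library scaling with the member they resemble, so these distances are a description.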

How the data were processed

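The authors deposited a table of TPM for 58830 genes, 1 column a library, and the columns sum to 1000000. HISAT2 2.1.0, featureCounts, DESeq2 and GRCh38 are named in the submitters' processing notes without their role. No source used here gives the annotation release, strand setting or filters. Symbols paired 37138 rows with a single GENCODE 29 gene, for which TPM times exon length fell into whole steps (between 88.2% and 89.0% of values under 50 reads lay within 0.02 of a whole number), which gave the estimated reads. Genes that reached 1 TPM in 3 or more libraries were tested on log2(TPM + 1), a scale that understates the change of low genes, by limma 3.58.1 in R 4.3.3 with eBayes and trend, 2-sided, with Benjamini-Hochberg adjustment over all genes tested and a threshold of 0.05. The fit was also run on simulated reads. These held neither the differing mitochondrial shares nor the replicate pairing of these libraries, so that run says nothing about either. Python 3.11.15, pandas 2.3.3 and matplotlib 3.10.9 served for the rest. Deviations from the group means of KD and DE libraries with the same number had correlations of 0.108, 0.144 and 0.347 across genes, each over the limit of 0.1 for treating the numbers as pairs, while KD replicate 1 with DE replicate 2 gave 0.121; values with the block assume the pairing. The members, lists and alternatives were chosen with earlier results of these data known. Named are all members, GATA6-AS1, the called genes of each list (up to 4 each way), the 2 most abundant tested genes of each list, and markers. ANXA1 and ANXA2 fall outside this rule, and 1 partner gene that passed is counted but not reported here.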

Additional observations from a re-analysis of the deposited data

How the results depend on the processing

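Counts of called genes depended on the settings, while the direction of 6 of the 7 tested S100 genes did not change under any alternative in which each was tested. S100A4 alone changed sign, from -0.01 to log2 changes of 0.00012 with median-ratio scaling, 0.0030 without mitochondrial genes, and up to 0.085 without single libraries (lowest -0.086); its value was near 0 throughout, and the cause was not tested. Over all genes, the fit of the report called 579, while separate fits called 239 with no filter, 1735 with quantile normalization, 1753 with median-ratio scaling, 1682 without mitochondrial genes, 2215 with the replicate block, 1212 without replicate 3 of both groups, 1853 with voom on the estimated reads (added after the data were seen), and between 87 and 610 without single libraries. Of the S100 members, 2 were called in the report, 1 with a pseudocount of 0.1 and 1 without the variance trend, 0 with no filter, 5 with the block, and between 0 and 1 without single libraries. Quantiles, median ratios, leaving out mitochondrial genes, leaving out replicate 3 of both groups and voom each called 3, 1 higher and 2 lower, and a mean of 5 TPM 1 higher and 1 lower; the higher one was S100A10. Partner genes, with 4 calls, had 1 with no filter, 2 with a mean of 5 TPM, 9 with quantiles, 10 with median ratios, 10 without mitochondrial genes, 9 with the block, 8 without replicate 3, and between 0 and 5 without single libraries. Other EF-hand genes, with 2 calls, had 1 with a mean of 5 TPM, 9 with quantiles, 8 with median ratios, 8 without mitochondrial genes, 8 with the block, 4 without replicate 3, and between 1 and 3 without single libraries. Annexins, with 0, had 1 with quantiles, 2 with median ratios, 2 without mitochondrial genes, 1 with the block and 1 without replicate 3, and the 1q21 neighbours, with 1, had 0 with a pseudocount of 0.1 or no filter, 5 with quantiles, median ratios, without mitochondrial genes or with the block, 4 without replicate 3, and between 0 and 2 without single libraries. Depth limits S100A2 and S100A6, at no more than 6 reads a library.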
